A study of Mus musculus with 6 samples.

Results

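Glucose is split to pyruvate in the cytosol by glycolysis, and pyruvate is then either reduced to lactate or carried into mitochondria, where the pyruvate dehydrogenase complex turns it into acetyl-CoA for the tricarboxylic acid (TCA) cycle. The genes described here are the enzymes, transporters and kinases of that route. Of 38 chosen genes, 36 were measured among 19938 genes on the arrays, and a gene counted as measured where a probe set carried its symbol alone. Gpi1 and Eno1, a glycolytic isomerase and an enolase, had no such probe set. A gene with several such probe sets was read from the brightest, by its mean on the 6 arrays.

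RNA from mouse embryonic fibroblasts (MEFs), cells grown from the connective tissue of embryos, was hybridised to Affymetrix gene arrays, with 3 arrays of wild-type cells (WT) and 3 of H2AX knockout cells (H2AX KO). H2AX is the histone variant that is phosphorylated around DNA breaks, and the comparison asked which transcripts differed where it was missing. Both genotypes came from the same laboratory and were grown in the same DMEM with serum and glutamine, and neither was treated. No source used here states the age of the embryos, how many embryos stood behind each genotype or how many cultures were grown. The study calls its numbered WT and KO samples independent replicates, without saying what was replicated. The tests below therefore measure the spread among these arrays, which may be technical, and 3 arrays a genotype limit their precision.

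All levels are deposited log2 intensities, and every difference is H2AX KO minus WT on that scale. The H2ax probe set itself fell from 9.05 ± 0.12 (SD, n = 3) in WT to 7.71 ± 0.05 (n = 3) in H2AX KO, a log2 difference of -1.34. Beside 18.4% higher and 15.0% lower over all genes, 5 of 12 fibroblast markers were higher and 5 lower in H2AX KO. Their mean log2 level lay between 10.06 and 10.17 on the WT arrays and between 10.26 and 10.30 on the H2AX KO arrays. Vim, the mesenchymal intermediate filament protein vimentin, read 13.21 ± 0.02 in WT and 13.14 ± 0.01 in H2AX KO (SD, n = 3 each). Thy1, a fibroblast surface protein, differed by 4.03, Dcn, which encodes the matrix proteoglycan decorin, by -2.15, and Fap, fibroblast activation protein, by -2.57, from 7.02 to 4.45. These 4 markers were named after their values were seen. Lists of 6 to 8 markers for skeletal muscle, leukocyte, epithelial, endothelial, adipocyte and neuronal cells held at most 2 passing genes each. The mean level of the neuronal list ran from 5.52 to 5.59 in WT and from 5.71 to 5.74 in H2AX KO, that of the endothelial list from 4.99 to 5.04 and from 4.84 to 4.91, and those of the other 4 lists overlapped between genotypes. The part that these marker differences play in the results was not tested. In RNA from a whole culture, fewer cells of a type and less RNA per cell cannot be told apart.

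The glycolytic and mitochondrial genes moved in both directions. In H2AX KO, 7 of the 36 rose (19.4%), 6 fell (16.7%) and 23 did not pass the test, at an adjusted p under 0.05 by limma over all genes. Over all genes the same test called 18.4% higher and 15.0% lower, 33.4% in all, beside 36.1% of the members. The median difference was 0.04 over the members and 0.02 over all genes, and the median size of a difference was 0.13 in both. Past 2-fold there were 3 members (8.33%, against 5.30% of all genes), of which 2 rose (2.12% of all genes) and 1 fell (3.18%). The WT and H2AX KO arrays did not overlap for 18 members, or 50% of them, against 44.8% of all genes. The members' share of calls was thus close to that of the array as a whole, and calls fell in every role except lower glycolysis.

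**Figure D1:**
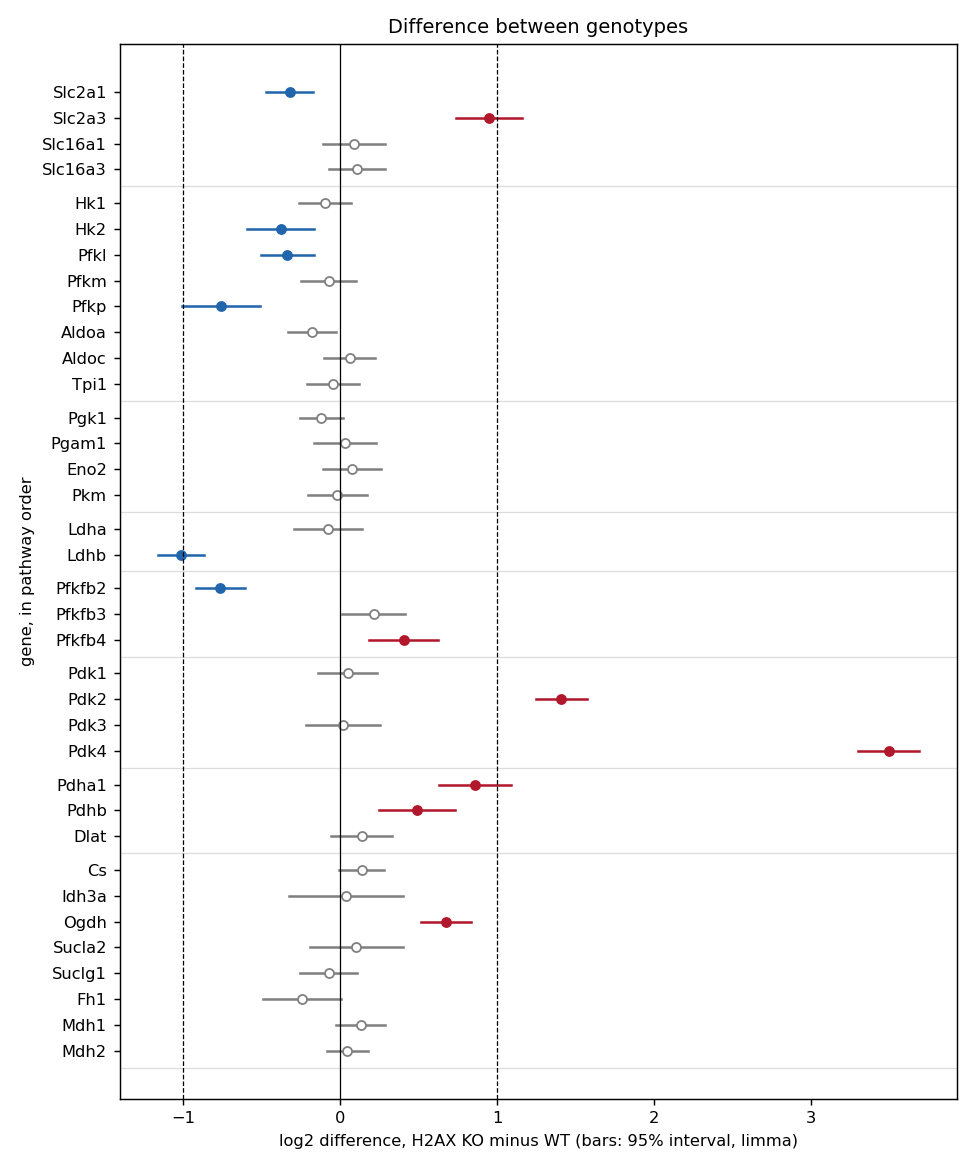
Difference between genotypes (H2AX KO minus WT, log2) for each of the 36 measured genes, in the order of the route. Points are estimates, bars are 95% intervals from limma, red and blue mark genes that rose and fell, and dashed lines mark 2-fold. Pdk4 stands at 3.49 and Pdk2 at 1.41, Ldhb at -1.02, and most glycolytic and TCA cycle genes lie near 0.

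The step at which pyruvate enters mitochondria held the largest differences among the members. Pyruvate dehydrogenase kinases phosphorylate the complex and switch it off, and the 4 genes Pdk1 to Pdk4 encode them. Pdk4, the kinase induced in muscle and liver when fat replaces glucose as fuel, read 6.19, 6.41 and 6.08 on the WT arrays and 9.68, 9.78 and 9.70 on the H2AX KO arrays. Every knockout array was more than 3 log2 units above every WT array. The difference was 3.49 (SE 0.09, 11.3-fold higher, limma adjusted p = 2.80e-09).

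Pdk2, the most widely expressed of these kinases, read 6.72, 6.74 and 6.68 in WT and 8.01, 8.23 and 8.12 in H2AX KO. The groups did not overlap, and the level rose by 1.41 (SE 0.07, 2.66-fold, limma adjusted p = 2.78e-07). The other 2 kinases did not pass. Pdk1, a target of hypoxia-inducible factor, differed by 0.05 (95% interval -0.14 to 0.23), and Pdk3 by 0.02 (-0.22 to 0.25). The rise was thus seen for 2 of the 4 kinase genes, where 18.4% of all genes rose. The intervals of the other kinases lie far under those of Pdk2 and Pdk4.

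**Figure D2:**
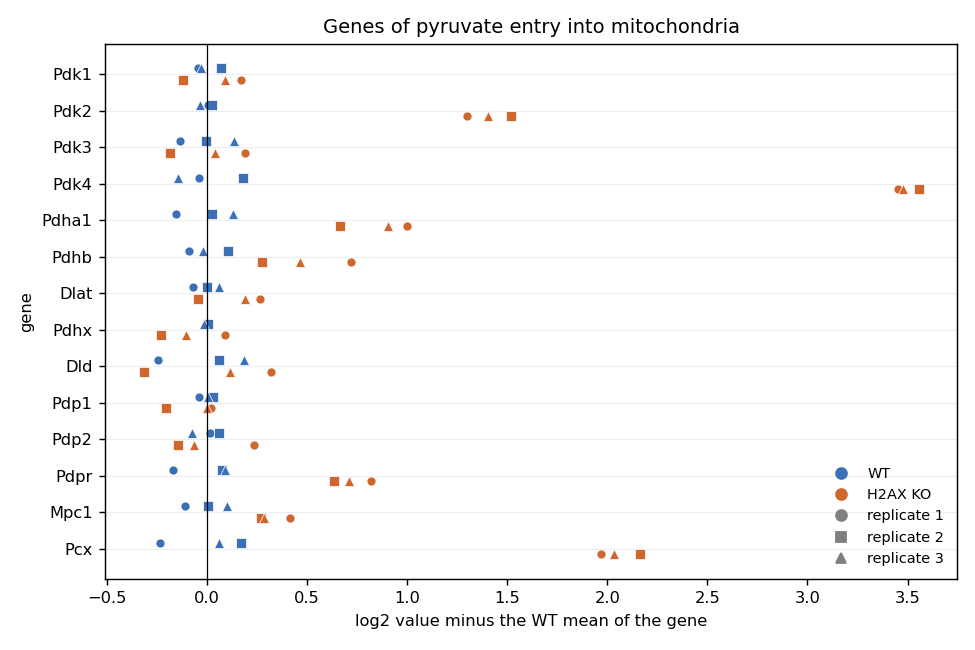
Log2 level of 14 genes of pyruvate entry on each array, less the WT mean of the gene (x axis, log2 units), with colour for genotype and shape for replicate. The knockout arrays of Pdk4, Pcx and Pdk2 stand farthest to the right, those of Pdha1, Pdhb, Pdpr and Mpc1 also lie above every WT array, and the other 7 genes overlap.

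The sequences upstream of these genes are shown because the kinases moved most. They are the 250 bases before the RefSeq transcription start in GRCm38.p6, printed 5′ to 3′ on the gene's strand, with capitals marking letters that matched a short motif searched on both strands: ACGTG or GCGTG, cores of the element bound by hypoxia-inducible factor, CACGTG, the E-box of MYC-type factors, which contains ACGTG, and CCAAT or its reverse complement.
Pdk4, chr6:5496279-5496528, minus strand: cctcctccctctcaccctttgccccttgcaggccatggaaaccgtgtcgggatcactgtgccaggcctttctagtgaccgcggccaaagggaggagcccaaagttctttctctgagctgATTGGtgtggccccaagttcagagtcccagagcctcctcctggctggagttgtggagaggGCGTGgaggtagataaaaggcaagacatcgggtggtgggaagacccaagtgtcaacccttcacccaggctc
Pdk2, the upstream one of 2 listed starts, chr11:95041372-95041621, minus strand: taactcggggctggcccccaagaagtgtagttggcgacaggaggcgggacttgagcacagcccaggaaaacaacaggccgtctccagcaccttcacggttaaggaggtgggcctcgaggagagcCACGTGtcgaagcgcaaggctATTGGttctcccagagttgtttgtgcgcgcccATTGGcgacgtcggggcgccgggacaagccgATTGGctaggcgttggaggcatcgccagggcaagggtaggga
The Pdk4 window held GCGTG with its first letter 71 bases before the start, and a reversed CCAAT box at 131 bases. The Pdk2 window held an E-box at 126 bases and 3 reversed CCAAT boxes at 105, 73 and 42 bases. The window of the other Pdk2 start, not printed, held no match to the motifs searched.

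Of the 3 members that encode the pyruvate dehydrogenase complex, the enzyme that these kinases inhibit, 2 rose, where 18.4% of all genes rose. Pdha1, the catalytic subunit that carries the phosphorylated serines, read 9.30, 9.48 and 9.59 in WT and 10.46, 10.12 and 10.36 in H2AX KO. The lowest knockout array lay above the highest WT array, and the gene rose by 0.86 (SE 0.10, 1.81-fold, limma adjusted p = 1.26e-04). Pdhb, its partner in the first reaction, read 7.11, 7.30 and 7.18 in WT against 7.92, 7.48 and 7.67. It rose by 0.49 (SE 0.11, limma adjusted p = 0.00586), without overlap between the genotypes, but this call was lost without limma's moderation of the variance, which is how the study's methods test (adjusted p = 0.085). Dlat, the acetyl transferase core, did not pass, at 0.14 (95% interval -0.06 to 0.33), and its groups overlapped. Outside the members, the core subunits Pdhx and Dld differed by -0.08 and 0.04 and did not pass either. The arrays hold no measure of the phosphorylation of these subunits.

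Lactate dehydrogenase, which interconverts pyruvate and lactate, is built from A and B subunits. Ldhb, the subunit typical of oxidative tissues, read 7.72, 7.84 and 7.80 in WT and 6.80, 6.69 and 6.81 in H2AX KO. The levels were tight within each genotype and did not overlap. Ldhb fell by 1.02 (SE 0.07, 2.02-fold lower, limma adjusted p = 1.59e-06). The genome positions of its probe sets were not used here. By its number, the one read above stands among those of chromosome 19 genes such as Pygm and Hif1an. The other stands beside that of Gys2 on chromosome 6, where Ldhb lies. The value of -1.02 may therefore not come from the gene's own locus. The other probe set showed a smaller fall of the same sign, -0.66 (limma adjusted p = 0.00113 over all probe sets), and so Ldhb was no longer past 2-fold with the mean of both, nor with median centring or without WT replicate 2 or H2AX KO replicate 2. Ldha, the subunit typical of glycolytic cells, did not pass and ranged from 12.13 to 12.43 in WT and from 12.05 to 12.31 in the knockout, with a difference of -0.08 (95% interval -0.29 to 0.14).
Ldhb, upstream window, chr6:142507958-142508207, minus strand: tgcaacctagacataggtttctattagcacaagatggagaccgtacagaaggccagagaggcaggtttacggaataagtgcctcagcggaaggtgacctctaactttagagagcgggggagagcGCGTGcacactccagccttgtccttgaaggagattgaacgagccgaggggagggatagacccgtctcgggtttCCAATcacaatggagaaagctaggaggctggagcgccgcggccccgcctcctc
It is shown as the member that fell most by the brightest probe sets, though by its other probe set it fell less than Pfkfb2 and Pfkp. The window held GCGTG at 126 bases and CCAAT at 53 bases before the start.

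At the entry of glucose, the facilitative glucose transporters moved in opposite directions. Slc2a1 encodes GLUT1, the transporter of most cultured cells, and read 10.82, 10.95 and 10.95 in WT against 10.62, 10.53 and 10.60 in H2AX KO. It fell by 0.32 (SE 0.07, 1.25-fold lower, limma adjusted p = 0.00395), with no overlap. Slc2a3 encodes GLUT3, the high-affinity transporter typical of neurons, and read 6.10, 6.19 and 6.39 against 7.27, 7.02 and 7.23. It rose by 0.95 (SE 0.09, 1.93-fold, limma adjusted p = 3.60e-05), also with no overlap. The proton-linked lactate carriers Slc16a1 (MCT1) and Slc16a3 (MCT4) differed by 0.09 and 0.11, did not pass and overlapped between genotypes.
Slc2a1, upstream window, chr4:119108495-119108744, plus strand: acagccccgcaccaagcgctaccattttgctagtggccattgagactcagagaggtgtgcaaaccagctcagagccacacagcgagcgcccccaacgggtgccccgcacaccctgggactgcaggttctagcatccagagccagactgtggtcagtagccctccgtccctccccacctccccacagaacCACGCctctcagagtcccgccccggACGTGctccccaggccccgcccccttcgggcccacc
It is shown as the transporter that fell, and it held ACGTG at 36 bases and a reversed GCGTG at 61 bases before the start. Slc2a3 had no entry in the promoter table.

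For upper glycolysis, from hexokinase to triosephosphate, 8 genes were read from their brightest probe sets. Of these, none rose, 3 fell and 5 did not pass, where 33.4% of all genes were called and 15.0% fell. Whether the shared direction of 3 calls is particular to these genes was not tested. The other probe set of Hk1, given below, was higher. Pfkp, the platelet form of phosphofructokinase, the main control enzyme of the pathway, read 8.37, 8.55 and 8.56 in WT and 7.85, 7.47 and 7.87 in H2AX KO. All knockout arrays were lower, by 0.76 on average, and it fell 1.69-fold (SE of the log2 difference 0.11, limma adjusted p = 4.63e-04). The liver form Pfkl read 9.14, 9.32 and 9.36 against 8.94, 8.87 and 8.997, and fell by 0.34 (SE 0.07, limma adjusted p = 0.00605). The muscle form Pfkm did not pass, at -0.07 (95% interval -0.25 to 0.10). Hk2, the inducible hexokinase that traps glucose in the cell, read 7.70, 8.02 and 7.93 against 7.56, 7.36 and 7.59. Its groups did not overlap and it fell by 0.38 (SE 0.10, limma adjusted p = 0.0118), though the call was lost in the unmoderated test (adjusted p = 0.10 without limma's moderation) and without WT replicate 2 (limma adjusted p = 0.057).

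Hk1, the constitutive hexokinase, was not given a direction, since its 2 probe sets differed in sign. The probe set taken by the rule differed by -0.10 and did not pass, whereas its other probe set differed by 0.26 (limma adjusted p = 0.0262 over all probe sets), with 8.88, 9.12 and 9.10 in WT and 9.32, 9.26 and 9.29 in H2AX KO. By its number, the probe set taken by the rule stands among those of chromosome 14 genes such as Glud1 and Pck2. The other stands beside that of Hkdc1 on chromosome 10, where Hk1 lies. Genome positions were not used here, and the value of -0.10 may not measure Hk1. A further 16 probe sets list Hk1 together with other genes, each including the ribosomal protein gene Rpl17, and were not used. Aldoa, the aldolase of muscle and of most cells, ranged from 11.54 to 11.55 in WT and from 11.30 to 11.47 in the knockout without overlap, but its difference of -0.18 missed the threshold (limma adjusted p = 0.0679). Aldoc, the aldolase of brain, and Tpi1, triosephosphate isomerase, differed by 0.06 and -0.05 and overlapped.

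No gene of lower glycolysis passed the test, where 33.4% of all genes were called, and all 4 that were measured differed little. Pgk1, phosphoglycerate kinase, which makes the first ATP of the pathway, differed by -0.12 (95% interval -0.26 to 0.02) without overlap of the arrays. Its other probe sets differed by -0.12 and -0.11 and did not pass either. Pgam1, phosphoglycerate mutase, differed by 0.03, Eno2, the neuronal enolase, by 0.08, and Pkm, the muscle-type pyruvate kinase, by -0.02, and all 3 overlapped. The other probe sets of Pgam1 differed by 0.10 and that of Pkm by -0.02, and none passed. The interval of Pkm, from -0.21 to 0.17, is wide enough to hold a change of the size seen for Aldoa.

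**Figure D3:**
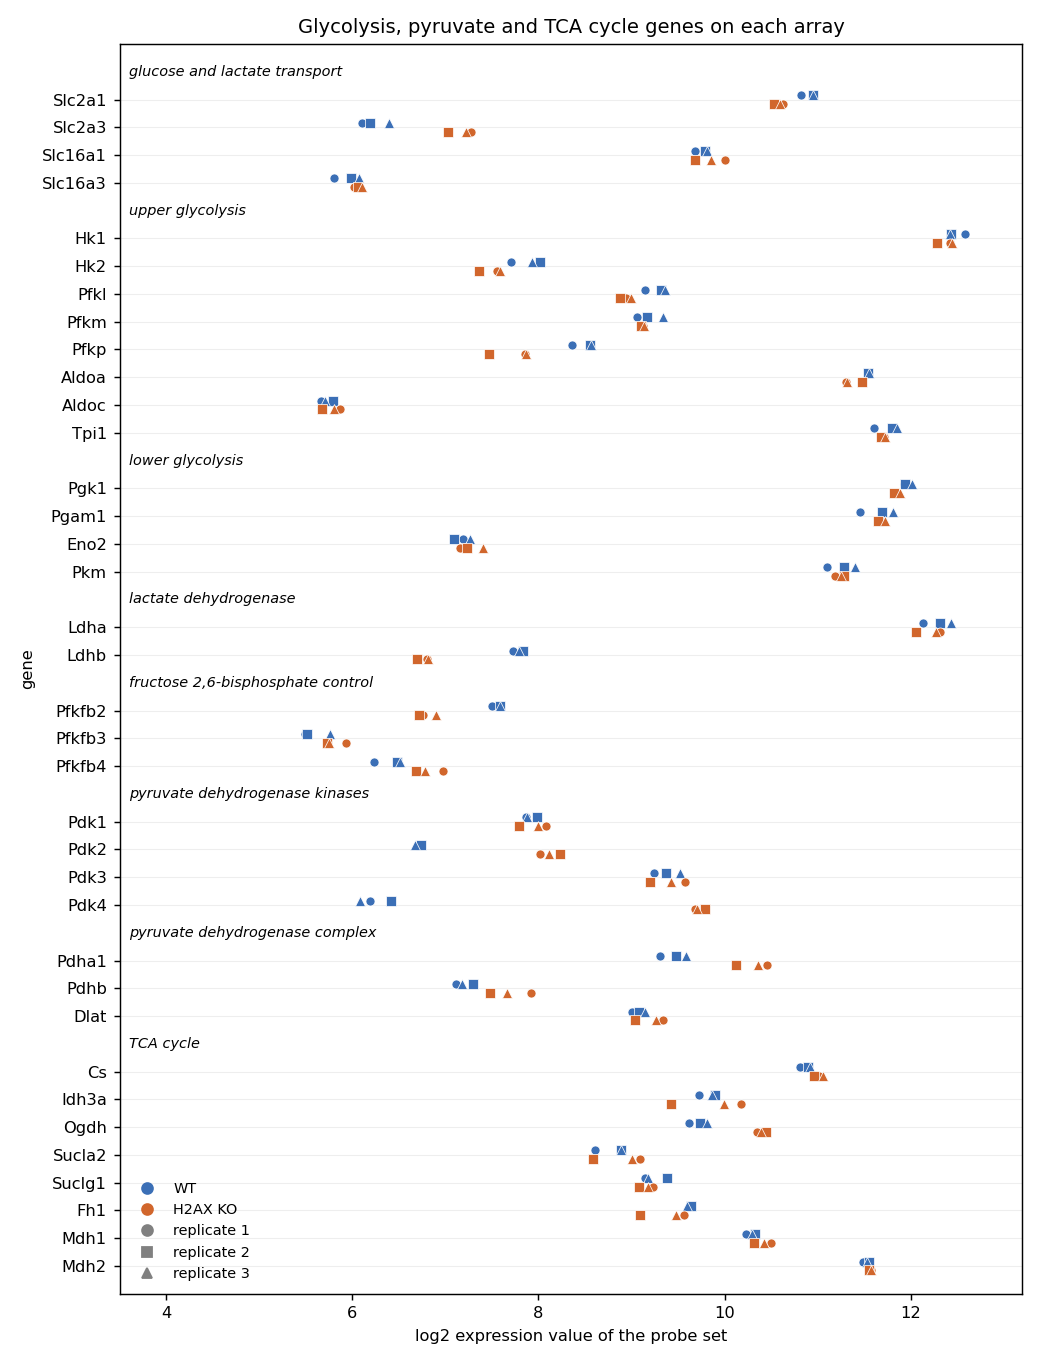
Log2 level (x axis) of each of the 36 measured genes on each of the 6 arrays, grouped by role, with colour for genotype and shape for replicate. Levels of different genes come from different probe sets and are not to be set against each other. WT replicate 1 (blue circles) and H2AX KO replicate 2 (orange squares) lie lowest of their genotype for 31 and 28 genes.

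Bifunctional enzymes of the Pfkfb family make and break the sugar bisphosphate that activates phosphofructokinase. Pfkfb2, the form of heart, read 7.499, 7.58 and 7.58 in WT and 6.76, 6.72 and 6.90 in H2AX KO. It fell by 0.76 (SE 0.07, 1.70-fold lower, limma adjusted p = 1.94e-05), and the groups lay well apart. Pfkfb4, a hypoxia-inducible form, moved the other way, from 6.23, 6.48 and 6.52 to 6.97, 6.69 and 6.78. It rose by 0.40 (SE 0.10, limma adjusted p = 0.00946), without overlap, and lost its call in the unmoderated test (adjusted p = 0.093 without limma's moderation). Pfkfb3, the form with the highest kinase activity, did not pass, at 0.21 (95% interval 0.01 to 0.41, limma adjusted p = 0.104), and its groups overlapped.
The upstream windows of the pair that moved in opposite directions are shown for comparison.
Pfkfb2, the most upstream of 3 listed starts, chr1:130716049-130716298, minus strand: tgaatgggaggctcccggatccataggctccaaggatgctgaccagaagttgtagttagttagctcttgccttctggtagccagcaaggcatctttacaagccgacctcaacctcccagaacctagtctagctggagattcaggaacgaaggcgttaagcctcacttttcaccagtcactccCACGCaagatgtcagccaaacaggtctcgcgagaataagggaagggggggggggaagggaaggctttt
Pfkfb4, chr9:108991652-108991901, plus strand: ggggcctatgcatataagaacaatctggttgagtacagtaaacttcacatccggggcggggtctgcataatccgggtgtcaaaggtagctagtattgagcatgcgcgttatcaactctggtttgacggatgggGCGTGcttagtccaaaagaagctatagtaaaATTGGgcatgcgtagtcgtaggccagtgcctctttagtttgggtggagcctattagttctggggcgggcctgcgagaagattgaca
Both held GCGTG, in reverse at 68 bases before the start of Pfkfb2 and forward at 117 bases before that of Pfkfb4, and Pfkfb4 also held a reversed CCAAT box at 86 bases. The windows of the other 2 starts of Pfkfb2, not printed, held further matches. The first had GCGTG at 72 and 44 bases, an E-box at 22 and a reversed CCAAT box at 81, and the other had ACGTG at 172 bases.

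Among the TCA cycle genes, 1 of 8 passed, where 33.4% of all genes were called. Ogdh, the substrate-binding subunit of the oxoglutarate dehydrogenase complex, a relative of pyruvate dehydrogenase, read 9.62, 9.74 and 9.81 in WT and 10.35, 10.45 and 10.39 in H2AX KO. All knockout arrays were higher, and the gene rose by 0.67 (SE 0.07, 1.60-fold, limma adjusted p = 4.90e-05). Cs, citrate synthase, which opens the cycle, was higher on all knockout arrays but by only 0.14 (limma adjusted p = 0.139). Fh1, fumarase, was lower on all of them, by -0.24 (95% interval -0.49 to 0.00, limma adjusted p = 0.127), with 9.10 on H2AX KO replicate 2 against 9.56 and 9.48 on the others.

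The other 5 genes of the cycle differed by -0.07 to 0.13. They were Idh3a, a subunit of NAD-dependent isocitrate dehydrogenase, Sucla2 and Suclg1 of succinate-CoA ligase, and the cytosolic and mitochondrial malate dehydrogenases Mdh1 and Mdh2. Idh3a had the widest spread, since H2AX KO replicate 2 read 9.43 where replicates 1 and 3 read 10.18 and 9.99, and its interval ran from -0.33 to 0.40. Among these 5, Mdh2 had the narrowest interval, from -0.09 to 0.18.

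Because paralogs are measured on the same arrays, the difference between a pair within each array shows unequal change. In 12 of 18 pairs the WT and H2AX KO arrays did not overlap, where 44.8% of single genes did not. Several pairs share a gene, such as Pdk4 or Pfkp, so the pairs are not separate observations. The share among other pairs of genes was not computed. Each of the 12 pairs had an exact permutation p of 0.1 (two-sided), the smallest that 3 against 3 arrays can give. After Benjamini-Hochberg adjustment over the 18 pairs it was 0.15, so none could pass. The pair difference shifted by -1.27 for Slc2a1 minus Slc2a3, by 0.94 for Ldha minus Ldhb and by -1.17 for Pfkfb2 minus Pfkfb4. It shifted by -2.08 for Pdk2 minus Pdk4, which is to say that the rises of these kinases were themselves unequal. Pfkp moved apart from both Pfkl (0.42) and Pfkm (0.69). The 6 pairs that overlapped were Slc16a1 and Slc16a3, Hk1 and Hk2, Aldoa and Aldoc, Pfkfb3 and Pfkfb4, Pdk1 and Pdk3, and Mdh1 and Mdh2. The Ldhb and Hk1 values in these pairs came from their brightest probe sets, with the limits given above.

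**Figure D4:**
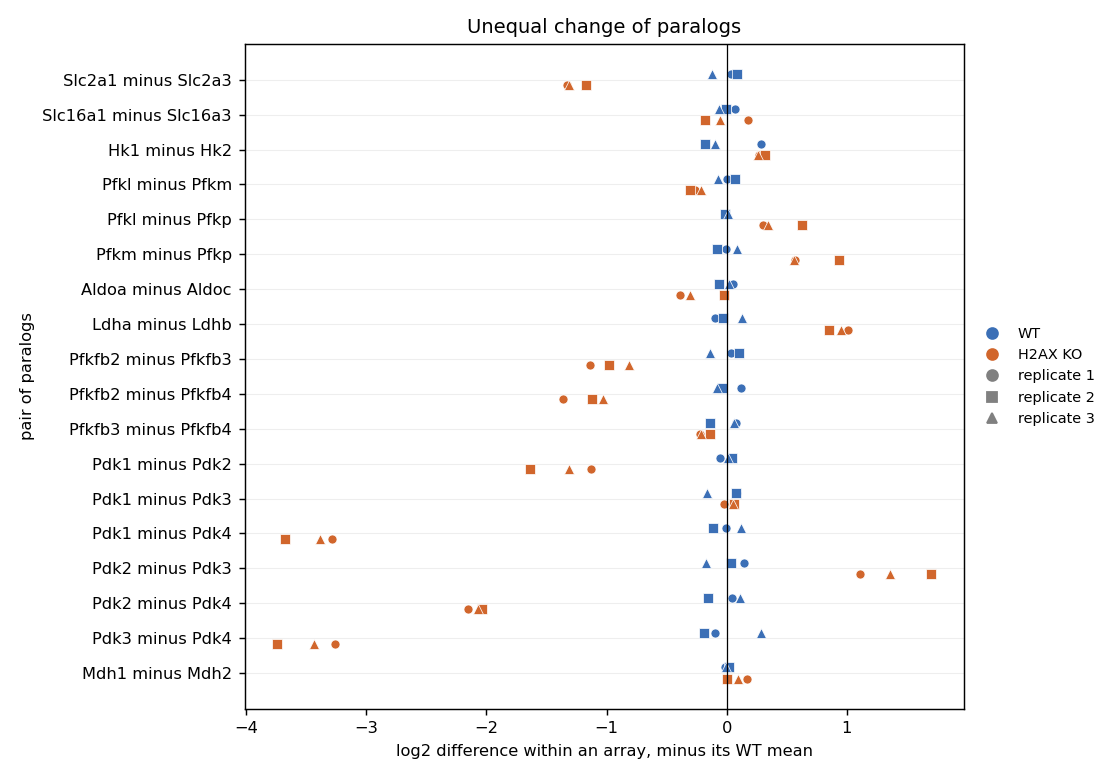
Difference in log2 level between the genes of a paralog pair within each array, for 18 pairs, drawn relative to the WT mean of the pair. Points are arrays, and the knockout arrays lie apart from the WT arrays in 12 pairs, with mean shifts of -3.48 for Pdk3 minus Pdk4 and -3.45 for Pdk1 minus Pdk4.

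Over all members, 34 had an entry in the promoter table, where a gene may have several windows. These 34 had 53 windows and all 27025 genes had 32851, so a member had more windows in which to match. ACGTG stood in a window of 17 (50%), against 18.5% of all 27025 genes, and GCGTG in 22 (64.7% against 30.9%). The E-box CACGTG stood in 7 (20.6% against 6.86%) and CCAAT in 16 (47.1% against 37.5%). Members' windows had a median GC content of 60.4%, against 52.4% for all windows, and these motifs contain G and C. Called members of both directions held these letters, with ACGTG for 3 that rose and 3 that fell and GCGTG for 5 of each. The FOXO site GTAAACA was found for 1 member (Aldoc, 2.94% against 3.54% of all genes) and TATAAA for 1 (Eno2, 2.94% against 14.3%). TGACNNNGC, the core of the antioxidant response element, was found for 4 (11.8% against 11.5%). AAGGTCA was found for none, against 4.7% of all genes. A match is a string of letters, and no binding was measured.

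The other genes of the route were taken from lists that hold no member. Of 36 further measured genes of glycolysis and gluconeogenesis, 11 rose and 3 fell (7 rose in the unmoderated test). Over all genes, 18.4% rose and 15.0% fell, and the counts of each list stand beside those shares. Pcx, pyruvate carboxylase, which turns pyruvate into oxaloacetate, read 7.004, 7.41 and 7.29 in WT and 9.20, 9.40 and 9.27 in H2AX KO. It rose by 2.06 (4.16-fold, limma adjusted p = 2.76e-07), so a second enzyme acting on mitochondrial pyruvate was higher beside Pdha1 and Pdhb. Slc2a6, a lysosomal member of the glucose transporter family, rose by 1.47. The largest falls were those of Slc16a4, a monocarboxylate transporter family member, at -2.18, and Slc2a13, a myo-inositol transporter, at -1.23.

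Of 27 further genes of pyruvate entry and the TCA cycle, 9 rose and 6 fell, beside 18.4% and 15.0% of all genes. In the unmoderated test 2 fell, and without WT replicate 3 there were 3 falls. Pdpr, the regulatory subunit of the phosphatase that reverses the kinases' action, rose by 0.72 (1.65-fold, limma adjusted p = 1.27e-04), and Glud1, glutamate dehydrogenase, by 0.48. Mpc1, a subunit of the carrier that brings pyruvate into mitochondria, rose by 0.32 (limma adjusted p = 0.00822) and was named after its value was seen. The other core subunits Pdhx and Dld and the phosphatases Pdp1 and Pdp2 differed by -0.08 to 0.04 and did not pass. Slc25a11, the mitochondrial oxoglutarate carrier, fell by 0.39 and Suclg2, a subunit of succinate-CoA ligase, by 0.38.

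**Figure D5:**
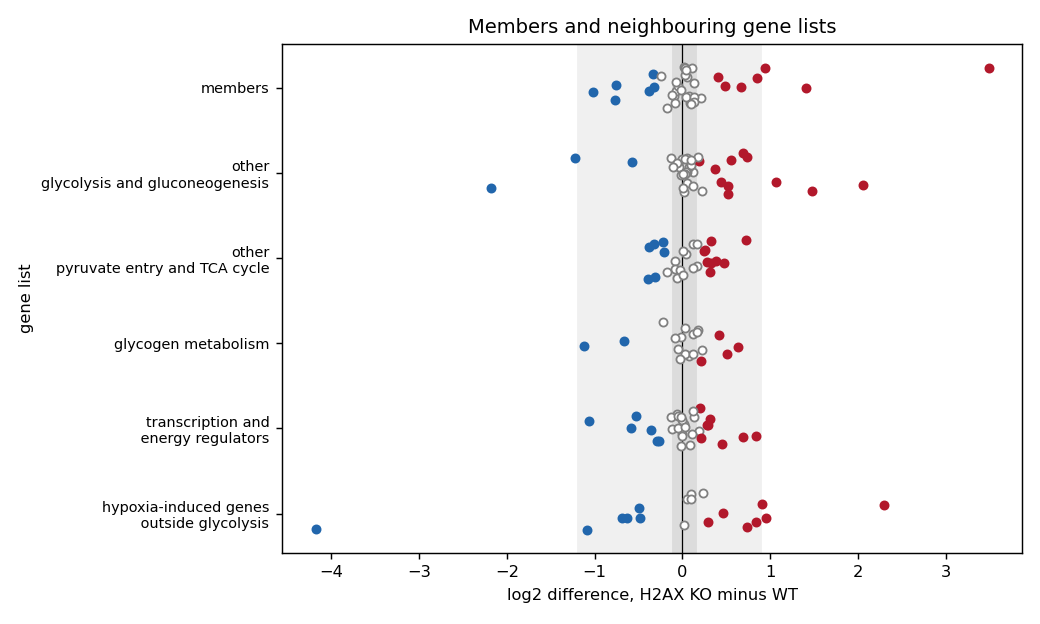
Log2 difference, H2AX KO minus WT (x axis), of each measured gene in the members' list and in 5 further lists, with red for genes that rose, blue for those that fell (limma, adjusted p under 0.05) and open points for the rest. Grey bands hold the middle 50% and 95% of all genes. Every list has points on both sides of 0, and Pdk4 lies farthest right at 3.49.

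Among 31 measured regulators of these genes, 8 rose and 6 fell, beside 18.4% and 15.0% of all genes. The rises came to 4 in the unmoderated test, to 2 without H2AX KO replicate 3, to 4 without H2AX KO replicate 1 and to 5 without each WT replicate in turn, and the falls to 3 when the dimmer 50% of genes were dropped. Hif1a, the oxygen-regulated subunit of the factor that drives many glycolytic genes, read 11.19, 11.19 and 11.13 in WT and 10.23, 9.93 and 10.18 in H2AX KO. It fell by 1.06 (2.08-fold lower, limma adjusted p = 7.68e-06). Ppargc1a, a coactivator of mitochondrial genes, fell by 0.58, while Mxi1, a MYC antagonist, rose by 0.84 and Stk11, the LKB1 kinase upstream of AMPK, by 0.69. Myc (0.11), Txnip (-0.13), which restrains glucose uptake, and Esrra (-0.12), the partner of Ppargc1a, did not pass.

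The genotypes also differed in transcripts of the Y chromosome, since Eif2s3y, Uty and Kdm5d were lower in H2AX KO, with log2 differences of -4.04, -3.73 and -2.88, while Xist was low in both (4.53 and 4.56). Of the 3 members on the X chromosome, Pdha1 rose and Pgk1 and Pdk3 did not pass. By its number, the Pgk1 probe set that was read stands beside those of Mycn and Dld on chromosome 12. It may therefore not lie at the X-linked locus, and genome positions were not used here. Idh3g, another X-linked gene of the cycle, rose by 0.24 (limma adjusted p = 0.0107). H2ax itself lies on chromosome 9 with 4 members, of which Pfkfb4 rose and Pkm, Dlat and Idh3a did not pass. The part of sex or of the targeted chromosome in these results was not tested.

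A pair of arrays lay low for this set of genes. WT replicate 1 was the lowest of its genotype for 31 of 36 members, and H2AX KO replicate 2 for 28 of 36, against 41.5% and 38.7% of all probe sets. Their mean deviation from the genotype mean was -0.09 and -0.10 log2 units. With both left out, all 13 calls were kept and Aldoa was added as a fall, which gave 7 members higher and 7 lower.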

How the data were processed

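Per the labels and the study's methods, RNA was labelled with biotin, hybridised to Affymetrix Gene ST arrays and processed by the authors with Expression Console and Partek 6.6. The deposited values are log2 intensities that the authors had normalized, by a method not given in the sources used here. The methods name a later version of the array than the one whose annotation matched the probe set numbers. Of 35556 probe sets, 21789 carried 1 gene symbol, 1621 several and 12146 none listed, and 21698 of the first matched RefSeq (GRCm38.p6). Each of 19938 genes was read from its brightest probe set, by mean level. H2AX KO was compared with WT by limma 3.58.1 in R 4.3.3, with Benjamini-Hochberg adjustment over all genes at 0.05. The comparison was tested on simulated data. Paralog pairs were compared by exact permutation. Alternatives were a replicate block, the methods' one-way test without moderation, other variance, scaling, filter, probe set and array weight settings, and leaving out arrays. All members, the 2 largest rises and falls of each further list and a few regulators were named. The members and lists were chosen with earlier results of these data known.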

Additional observations from a re-analysis of the deposited data

How the results depend on the processing

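Of the 13 members called, 10 kept their call and direction under all 15 alternatives. The exceptions were Hk2, Pfkfb4 and Pdhb in the unmoderated one-way test of the methods, which left 5 members higher and 5 lower, and Hk2 without WT replicate 2. With array weights 11 members were higher. Past 2-fold, 0 members were lower with median centring and 0 with the mean of the probe sets of a gene, and at 1.5-fold 5 were higher and 3 lower. Leaving out 1 array at a time gave 7 to 9 members higher, 5 to 7 lower, 2 to 3 higher and 0 to 1 lower past 2-fold, and a median member difference of -0.00452 to 0.0996. Signs turned for members that had not passed. Hk1 came to 0.0807 with the mean of its probe sets, 0.26 with the other probe set and 0.00425 without WT replicate 1 and H2AX KO replicate 2, which also turned Pgam1 (-0.0502). Pkm came to 0.00952 with quantile normalization and 0.0193 with median centring, and to -0.120 without WT replicate 1 and H2AX KO replicate 2. With single arrays left out the ranges were -0.126 to -0.0461 for Hk1, -0.139 to 0.00154 for Pfkm, -0.119 to 0.00117 for Tpi1, -0.0677 to 0.108 for Pgam1, -0.101 to 0.0520 for Pkm, -0.159 to 0.00173 for Ldha, -0.0139 to 0.131 for Pdk1, -0.0707 to 0.118 for Pdk3, -0.121 to 0.254 for Idh3a, -0.119 to 0.000728 for Suclg1 and -0.00498 to 0.0806 for Xist. The cause was not tested. The replicate numbers did not pair the arrays (same-numbered deviations correlated at -0.29, -0.24 and 0.08), and with the replicate number as a block 7 members were higher and 6 lower, with no member call changed. No scaling moved the median of all genes past 0.059. The leave-out of both doubted arrays and the second probe sets were chosen after seeing the data. With 3 arrays a genotype, differences within the intervals given could not be detected.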

Other observations

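Glycogen metabolism, which stores glucose beside the route described above, was mixed. Of 19 measured genes, 4 rose and 2 fell in H2AX KO (limma, adjusted p under 0.05 over all genes). The same test called 18.4% of all genes higher and 15.0% lower. Gbe1, the branching enzyme, read 8.06, 8.07 and 8.15 in WT and 7.06, 6.80 and 7.07 in H2AX KO, and fell by 1.12 (2.17-fold lower, limma adjusted p = 4.47e-06). Pgm1, a phosphoglucomutase that links glycogen to glycolysis, fell by 0.67. Gsk3b, a kinase that inhibits glycogen synthase, rose by 0.64 and Phka2, a subunit of phosphorylase kinase, by 0.51.

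Hypoxia-induced genes outside glycolysis moved both ways, with 7 of 18 higher and 6 lower, beside 18.4% and 15.0% of all genes. Egln3, an oxygen-sensing prolyl hydroxylase, read 11.55, 11.72 and 11.65 in WT and 7.71, 7.10 and 7.58 in H2AX KO, a difference of -4.18 (18.1-fold lower, limma adjusted p = 1.47e-08). Adm, adrenomedullin, fell by 1.09. Stc2, the secreted glycoprotein stanniocalcin, read 6.76, 7.01 and 7.05 against 9.34, 9.16 and 9.20 and rose by 2.30 (4.91-fold, limma adjusted p = 4.50e-08), and Ddit4, an inhibitor of mTOR signalling, rose by 0.95.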
